A study of Mus musculus with 4 samples.

Results

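The genes described are 10 of the 24421 gene symbols counted, chosen by name: the transcription factor genes Stat3, Stat4, Stat5a, Stat5b and Stat6, the feedback inhibitor genes Socs1, Socs2, Socs3 and Cish, and the kinase gene Pim1. They were measured by RNA sequencing in regulatory T cells (Tregs), which restrain immune responses. CD45.1+ mice were injected intraperitoneally with EG7.1.15 tumor cells and joined surgically for 14 days to a CD45.1- tumor-free partner, so that blood cells passed between them. Only partner-derived cells of the B6 Foxp3-DTR/GFP strain were sorted, as live CD45.2+ B220- CD4+ CD25+ cells positive for the GFP reporter of Foxp3. The omental tumors and the spleen of the tumor-bearing mouse gave 2 libraries each, from mouse 2 and mouse 3, at day 14 after tumor injection, so both tissues shared the strain, the partner surgery and the tumor. Cells carrying the CD45.1 marker of the tumor-bearing mouse were left out by the gate. No tumor-free joined pair and no Tregs from the host are part of the comparison.

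Cytokine receptors without enzyme activity of their own carry Janus kinases (JAKs). The kinases phosphorylate STAT proteins, which then pair, enter the nucleus and bind DNA. SOCS proteins and CIS, the product of Cish, are made in response and shut the receptor or its kinase off again. In Tregs, interleukin-2 signals through STAT5 to keep Foxp3 on, while other STATs carry the signals of interleukin-6 and interleukin-10 (STAT3), interleukin-12 (STAT4) and interleukin-4 (STAT6).

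Of the 9 genes with a RefSeq promoter window (GRCm38.p6, 250 bases before to 50 bases after the start, 13 windows in all; Socs2 is named only), Socs3 and Cish held the core STAT motif TTCNNNGAA, which reads the same on both strands. Both windows are shown because they hold the motif, which stands in capitals.
Socs3, chr11:117969317-117969616, minus strand: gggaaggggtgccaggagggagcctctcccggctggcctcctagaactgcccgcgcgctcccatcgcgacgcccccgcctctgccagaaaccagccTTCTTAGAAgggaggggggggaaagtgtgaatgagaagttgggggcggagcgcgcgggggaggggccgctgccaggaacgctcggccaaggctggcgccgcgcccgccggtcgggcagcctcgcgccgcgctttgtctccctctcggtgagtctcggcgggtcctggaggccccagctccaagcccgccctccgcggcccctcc
Cish, chr9:107296409-107296708, plus strand: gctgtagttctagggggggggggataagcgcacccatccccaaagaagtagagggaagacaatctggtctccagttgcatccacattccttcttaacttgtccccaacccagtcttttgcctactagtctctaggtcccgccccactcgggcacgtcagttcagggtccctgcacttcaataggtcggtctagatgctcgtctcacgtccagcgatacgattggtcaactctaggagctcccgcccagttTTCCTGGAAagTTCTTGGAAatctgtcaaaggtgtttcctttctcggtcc
The Socs3 motif began 154 bases before the start. The first Cish motif began at the start itself and the second 11 bases downstream, and the motifs do not overlap. Of 32851 such windows of all genes, 8.30% held TTCNNNGAA. The wider form with 4 free bases between TTC and GAA was found in 6.95% of all windows and in none of these genes' windows. A match describes the letters only, and binding was not measured.

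Counts in genes came to 6660230 and 3764508 in the omental tumor libraries and to 9989005 and 13598631 in the spleen libraries. Levels are CPM, counts scaled to the same effective library size with TMM factors, and 1 count equals 0.131 and 0.253 CPM in the omental libraries of mouse 2 and mouse 3 and 0.0979 and 0.0915 CPM in the spleen libraries. All 10 genes passed the filter on low counts, with 5 to 7971 counts in a library. The sort markers Foxp3, Il2ra and Cd4 were present, at levels that differed between libraries. Foxp3 stood at 81.4 and 84.3 CPM in omental tumor against 113 and 144 CPM in spleen. Il2ra, which encodes CD25, stood at 690 and 320 CPM in omental tumor against 700 and 886 CPM in spleen. Cd4 stood at 376 and 114 CPM in omental tumor against 568 and 1008 CPM in spleen. The libraries differed in markers of other cells. The summed level of 8 neutrophil markers was 141 CPM in the mouse 2 and 1467 CPM in the mouse 3 omental library, against 94.0 and 59.4 CPM in spleen. That of 13 macrophage and monocyte markers was 514 and 877 CPM in omental tumor against 230 and 459 CPM in spleen. Members of that list went both ways, 6 of the 12 tested having negative fold changes with a median of -0.04. Lyz2 stood at 250.1 and 297 CPM in omental tumor against 6.85 and 61.8 CPM in spleen, and Csf1r at 38.7 and 14.4 CPM in omental tumor against 69.9 and 109.7 CPM in spleen. The sum of 10 fibroblast and mesothelial markers was 187 and 18.7 CPM in omental tumor against 20.4 and 8.24 CPM in spleen. For 6 B cell and plasma cell markers it was 546 and 29.4 CPM in omental tumor against 197 and 237 CPM in spleen. Jchain, the most abundant of these, stood at 465 and 5.32 CPM in omental tumor against 150 and 187 CPM in spleen. Of the 5 tested, 4 had positive and 1 a negative fold change. No neutrophil or macrophage marker counted was at 0 in any library. In sorted bulk cells, fewer cells of a type and less RNA per cell cannot be told apart.

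None of the 10 genes was called between tissues by edgeR's quasi-likelihood test at an adjusted p of 0.05, and 0 had an unadjusted p under 0.05. DESeq2 and limma-voom also called 0 each, with 1 at an unadjusted p under 0.05. Over all 16322 genes tested, 215 were called (1.32%), with 178 higher (1.09%) and 37 lower (0.227%) in omental tumor, and 9.01% had an unadjusted p under 0.05. The smallest absolute log2 fold change called in any gene was 2.78, and the highest among these 10 was 1.68, so no gene with a fitted difference as small as theirs was called. A replicate block for the mouse also gave 0 calls among the 10, against 1.89% of all genes, with 1 of the 10 at an unadjusted p under 0.05. Fitted log2 fold changes were negative for 7 (46.4% of all genes) and positive for 3, with a median of -0.67, against 0.11 over all genes tested. Levels of 5 of the 10 were lower in both omental libraries than in either spleen library, a pattern of 25.4% of all genes tested. None was higher in both (16.4%), while 41.8% of all genes did not overlap in one direction or the other. These counts and shares are at TMM scaling. With library gene totals Stat4 and Stat6 stayed apart, while Stat5b, Socs2 and Cish overlapped between tissues. In 6 of the 10 the omental library was the lower one in both mice at TMM scaling, against 31.6% of all genes. Log2 ratios of Cish in mouse 2 (-0.01) and Socs3 in mouse 3 (-0.08) were near 0. With library gene totals Cish was higher in the mouse 2 omental library, at 398 against 358 CPM in spleen. In mouse 3 so were Socs3 (21.3 against 17.2 CPM) and Socs2 (74.9 against 70.6 CPM).

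**Figure D1:**
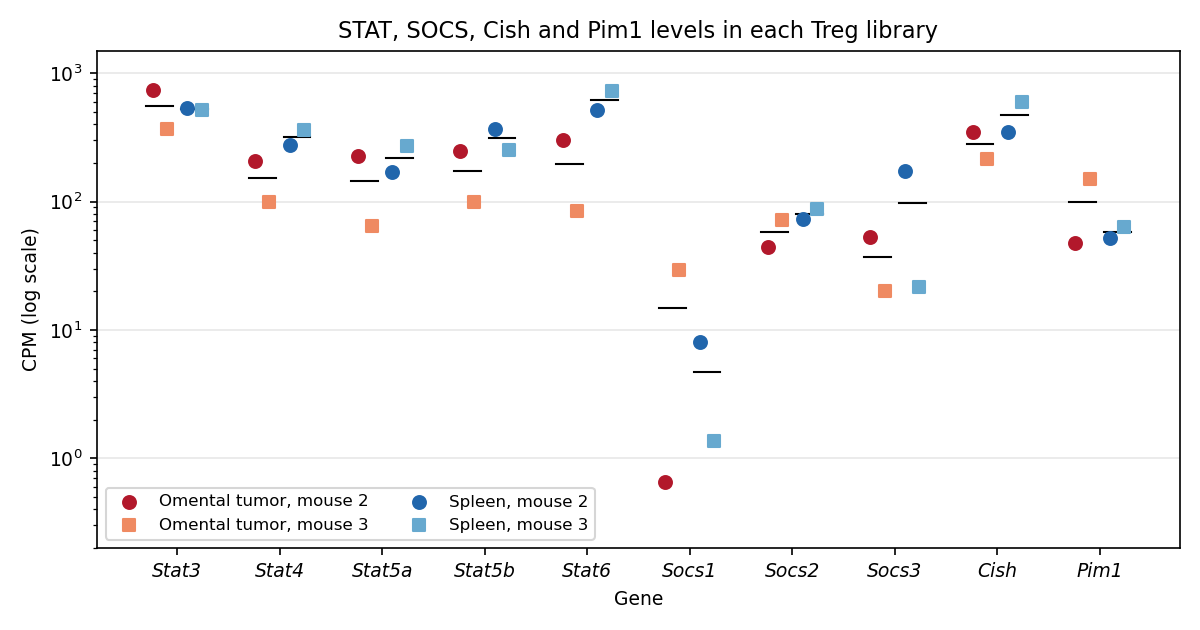
Levels of the 10 genes in each library, in CPM on a log axis, with omental tumor left of spleen and black bars for the mean of the 2 libraries. Stat6 lies at 305 and 85.1 CPM in omental tumor, below 521 and 729 CPM in spleen, while Socs1 spreads from 0.656 to 29.1 CPM between the omental libraries.

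Stat6, the factor of interleukin-4 and interleukin-13 signals (GRCm38 chromosome 10, 127642986 to 127660957), showed the widest gap of the STAT genes. It stood at 305 CPM in the mouse 2 and 85.1 CPM in the mouse 3 omental library, against 521 and 729 CPM in the spleen libraries of those mice. Both omental libraries lay below both spleen libraries, and mouse 3 omental was the lowest. Its mean was 195 ± 155 CPM in omental tumor against 625 ± 148 CPM in spleen (SD, n = 2 each), and the fitted log2 fold change was -1.68 (SE 0.87, adjusted p = 0.564 in edgeR's quasi-likelihood test). The normal 95% interval of that fold change ran from -3.38 to 0.02. Within mouse 2 the log2 ratio was -0.77 and within mouse 3 it was -3.10.

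Stat4, which relays interleukin-12 (chromosome 1, 51987148 to 52107189), stood at 207 and 99.0 CPM in omental tumor and at 274 and 361 CPM in spleen. The tissues did not overlap, and the log2 fold change was -1.05 (SE 0.83, adjusted p = 0.768 in edgeR). Stat4 and Stat6 were the 2 of the 10 whose tissue difference in mean log2 CPM exceeded the gap between the mice within either tissue, a property of 26.4% of genes with counts in every library. For Stat4 the gap between the omental libraries was 1.07 on the log2 scale against a tissue difference of -1.13, and for Stat6 it was 1.84 against -1.94.

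The STAT5 genes lie next to each other on chromosome 11 and encode closely related factors of interleukin-2 signals. Stat5b (100780731 to 100850724) stood at 248 and 99.0 CPM in omental tumor and at 370 and 254 CPM in spleen. Its tissues did not overlap with TMM factors, although the omental level of mouse 2 came close to the spleen level of mouse 3. With library gene totals the tissues overlapped, at 284 CPM in the mouse 2 omental against 204 CPM in the mouse 3 spleen library. The fitted log2 fold change was -0.85 (SE 0.83, adjusted p = 0.804 in edgeR). Stat5a (100859351 to 100885169) stood at 225 and 64.1 CPM in omental tumor and at 169 and 270 CPM in spleen. These ranges overlapped, and the 2 mice pointed in opposite directions, mouse 2 giving a log2 ratio of 0.41 and mouse 3 one of -2.08 (fitted -0.60, SE 0.81, adjusted p = 0.852 in edgeR). Of the distinct 50-base words of their annotated transcripts, 8.21% of those of Stat5a and 11.0% of those of Stat5b occur in the partner gene, so reads from there match both genes.

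Stat3, used by interleukin-6, interleukin-10 and interleukin-21 (chromosome 11, 100885098 to 100939540), had the fitted difference nearest to 0. It stood at 746 and 366 CPM in omental tumor and at 532 and 521 CPM in spleen. The spleen libraries were close together and lay between the omental libraries, and the fit gave 0.08 on the log2 scale (SE 0.86, adjusted p = 0.981 in edgeR). Its normal 95% interval, -1.61 to 1.76, does not show equal levels, and the sign turned negative with the replicate block (-0.010). The last exons of Stat3 and Stat5a overlap by 72 bases on opposite strands, and the library kits do not mark strand.

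Of the omental libraries, that of mouse 3 was the lower one for all 5 STAT genes, and for 68.1% of all genes tested. For T lineage markers the median of the fitted log2 differences was -1.004, with 11 of 11 negative, 0 called and 0 at an unadjusted p under 0.05 in edgeR (DESeq2 called 0, with 4 unadjusted, and limma-voom 0, with 3). They summed to 4119 and 4705 CPM in omental tumor against 6027 and 9731 CPM in spleen. The part of T lineage and other-cell RNA in the STAT levels was not tested. When libraries were scaled to the summed T lineage counts, an alternative chosen after seeing the data, the log2 fold change was -0.81 for Stat6, -0.21 for Stat4, -0.11 for Stat5b, 0.29 for Stat5a and 0.87 for Stat3.

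**Figure D2:**
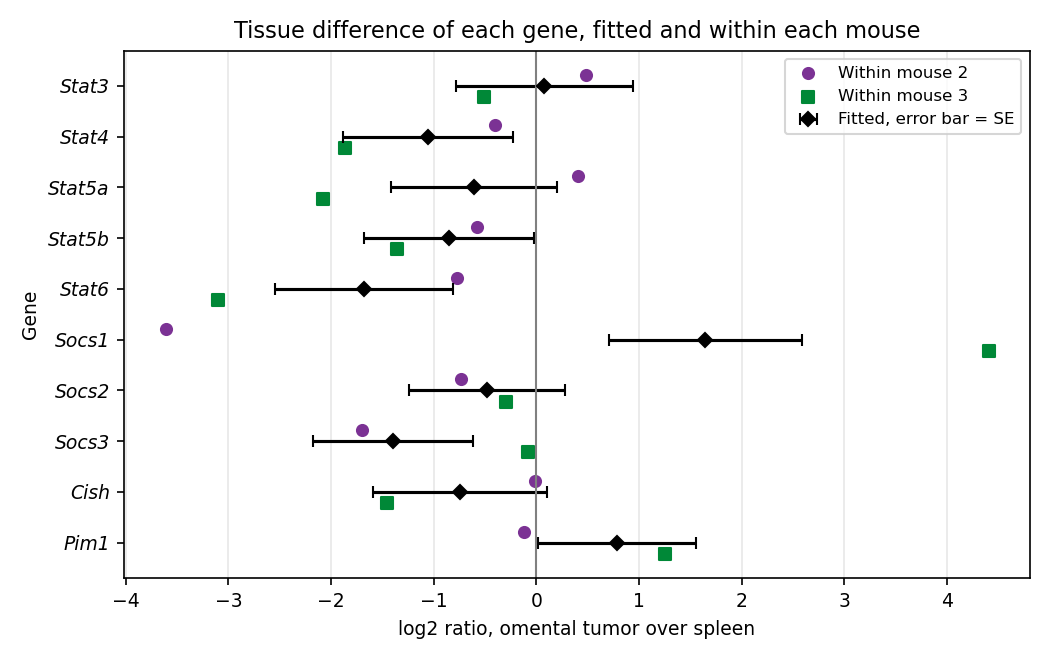
Log2 ratio of omental tumor over spleen for each gene at TMM scaling. It is shown as fitted over both mice (black, error bar SE) and within mouse 2 (circles) and mouse 3 (squares). Stat4, Stat5b, Stat6, Socs2, Socs3 (-0.08 in mouse 3) and Cish (-0.01 in mouse 2) lie left of 0 in both mice, and Socs1 lies at -3.61 in mouse 2 and 4.41 in mouse 3.

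Ratios between genes of the same library do not depend on how libraries are scaled. Stat3 had 2.45 and 4.31 counts for each count of Stat6 in omental tumor, against 1.02 and 0.714 in spleen. The Stat3 to Stat6 ratio was thus higher in the omental than in the spleen library of both mice. Stat3 was also higher relative to Stat4, with ratios of 3.59 and 3.70 in omental tumor against 1.94 and 1.44 in spleen. These pairs were picked after their values were seen. Of the 45 ratios among the 10 genes, 14 (31.1%) did not overlap between tissues, while 45.4% of all gene pairs with counts in every library did not, so a separated ratio is common in these libraries.

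To set genes beside each other, levels were divided by the length of all annotated exons of a gene, merged over its transcripts. That length was 9527 bases for Stat3 (14 transcripts), 6419 for Cish (5) and 4402 for Stat6 (5). It can exceed the length of the RNA made, so the order and the shares of the genes depend on the annotation. In spleen, Stat6 was the highest at 118 and 166 CPM per kb, followed by Stat4 at 70.8 and 93.2 and Cish at 54.5 and 92.4 CPM per kb. Stat6 stood apart from Stat4 there, while Stat4, Cish, Stat5b and Stat3 overlapped their neighbours in the order. In omental tumor Stat3 had the highest mean, with 78.3 and 38.5 CPM per kb, but each of the 9 neighbouring pairs in the order overlapped. Of the summed CPM per kb of the 5 STAT genes, Stat3 made up 28.2% and 34.9% in omental tumor against 16.7% and 13.8% in spleen. Stat6 made up 24.96% and 17.5% in omental tumor against 35.2% and 41.7% in spleen.

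**Figure D3:**
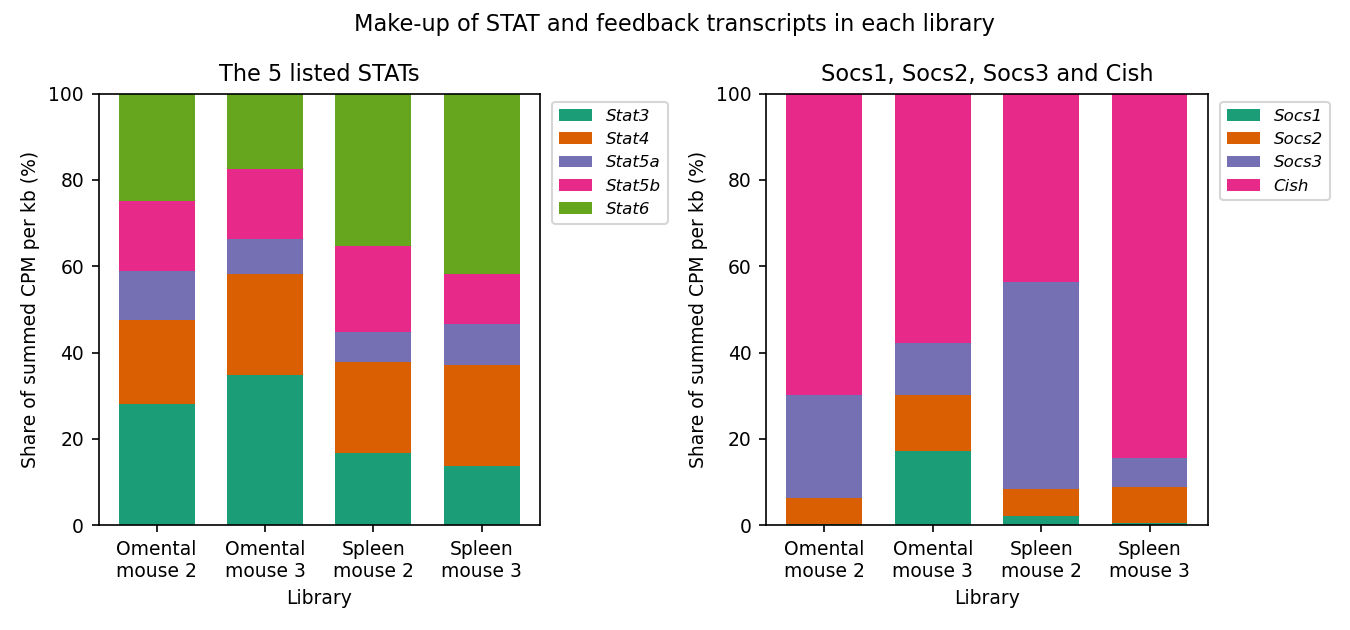
Make-up of STAT transcripts (left) and feedback transcripts (right) in each library, as the share in percent of their summed CPM per kb. Stat3 takes 28.2% and 34.9% in omental tumor against 16.7% and 13.8% in spleen, and Socs3 takes 48.0% of the feedback genes in the spleen library of mouse 2.

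Among the feedback genes, Cish, which is induced by STAT5 and dampens interleukin-2 and T cell receptor signals (chromosome 9, 107296026 to 107302784), had the highest mean per exon length in both tissues. It made up 69.9% and 57.8% of the summed CPM per kb of the 4 feedback genes in omental tumor against 43.7% and 84.4% in spleen, where Socs3 was above it in the mouse 2 library. Cish stood at 348 and 216 CPM in omental tumor and at 350 and 593 CPM in spleen. The omental and spleen levels of mouse 2 were nearly the same, at a log2 ratio of -0.01, and mouse 3 gave -1.46. The fitted log2 fold change was -0.74 (SE 0.85, adjusted p = 0.827 in edgeR). The tandem motifs shown above lie at its RefSeq start.

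Socs2, another gene that STAT5 induces and best known as a brake on growth hormone signals (chromosome 10, 95385362 to 95417180), stood at 44.0 and 71.4 CPM in omental tumor. In spleen it stood at 73.0 and 87.8 CPM. The mouse 3 omental level lay just below the mouse 2 spleen level, and just above it with library gene totals. The log2 fold change was -0.48 (SE 0.76, adjusted p = 0.875 in edgeR). With upper-quartile factors the sign turned, to 0.071.

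Socs3, which binds the interleukin-6 receptor subunit gp130 and blocks JAK activity (chromosome 11, 117966079 to 117970047), varied most between the spleens. It stood at 53.4 and 20.3 CPM in omental tumor and at 173 and 21.4 CPM in spleen, from 407, 80, 1768 and 234 counts in that order. The spleen library of mouse 2 was 8.08 times that of mouse 3, and the other 3 libraries lay between 20.3 and 53.4 CPM. The log2 fold change was -1.40 (SE 0.78, adjusted p = 0.608 in edgeR), and it became 0.73 (adjusted p = 0.801) without that spleen library. Genes of the dissociation and handling response summed to 2961 and 2477 CPM in omental tumor and to 1487 CPM in the mouse 2 and 819 CPM in the mouse 3 spleen library. Members went both ways, 3 of the 12 having negative fold changes. In edgeR 2 of the 12 rose and 0 fell (beside 1.09% and 0.227% of all genes), while DESeq2 called 5 and limma-voom 2. Atf3 stood at 63.3 and 119 CPM in omental tumor against 1.37 and 0.824 CPM in spleen (6.36, adjusted p = 5.97e-08 in edgeR). Dusp1 stood at 31.4 and 451 CPM against 23.6 and 8.69 CPM (3.90, adjusted p = 0.00192, and 0.173 with the replicate block). Ier2 and Jun were highest in the mouse 2 spleen library. Ier2 stood at 94.5 and 107 CPM in omental tumor against 188 and 20.8 CPM in spleen. Jun stood at 3.68 and 40.8 CPM against 63.1 and 6.41 CPM. Junb, the most abundant, stood at 1137 and 981 CPM in omental tumor against 584 and 104 CPM in spleen. The part of handling genes in the Socs3 level was not tested.

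Socs1, which inhibits JAKs downstream of interferon gamma and interleukin-2 (chromosome 16, 10782240 to 10785536), had the lowest mean per exon length of the 10 in both tissues and the widest gap between the omental libraries. In the mouse 3 omental library it was above Socs3. It stood at 0.656 CPM in the mouse 2 and 29.1 CPM in the mouse 3 omental library, and at 8.02 and 1.37 CPM in spleen. These rested on 5 and 115 counts in omental tumor against 82 and 15 counts in spleen. The exact Poisson 95% intervals, which cover counting error only, were 0.213 to 1.53 and 24.04 to 34.9 CPM in omental tumor against 6.38 to 9.96 and 0.768 to 2.26 CPM in spleen. The mouse 3 omental level was 44.4 times that of mouse 2, and the tissue difference had opposite signs in the 2 mice (log2 ratios of -3.61 and 4.41). The fitted log2 fold change was 1.65 (SE 0.94, adjusted p = 0.623 in edgeR) and turned to -2.89 (adjusted p = 0.936) without the mouse 3 omental library.

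Pim1, a survival kinase gene that STAT3 and STAT5 induce (chromosome 17, 29490753 to 29496112), stood at 47.7 and 151 CPM in omental tumor and at 51.7 and 63.5 CPM in spleen. The mouse 3 omental library was high and the other 3 lay close together. The log2 fold change was 0.79 (SE 0.77, adjusted p = 0.805 in edgeR), and it was -0.36 (adjusted p = 0.937) without the mouse 3 omental library. That library, high in Socs1 and Pim1, was also the one high in neutrophil markers: its S100a9 level was 475 CPM, with 1.58 CPM in the mouse 2 omental library and 9.10 and 7.503 CPM in spleen. Cd14 of the macrophage and monocyte list was at 273 CPM there, with 23.8 CPM in the mouse 2 omental library and 2.64 and 4.85 CPM in spleen. Other members of that list were lowest in the same library, such as Csf1r at 14.4 CPM and Mrc1 at 5.57 CPM. Whether these cells gave part of the Socs1 and Pim1 counts was not tested. Exons of Cish and Pim1 also overlap annotated antisense transcripts, by 740 and 488 bases. Those of Stat4 overlap a noncoding gene on the same strand by 1033 of 3872 bases, and those of Stat6 the gene Nab2 by 40 bases. Of these overlapping genes, only Nab2 is among the symbols counted. Reads there cannot be told apart by strand.

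**Figure D4:**
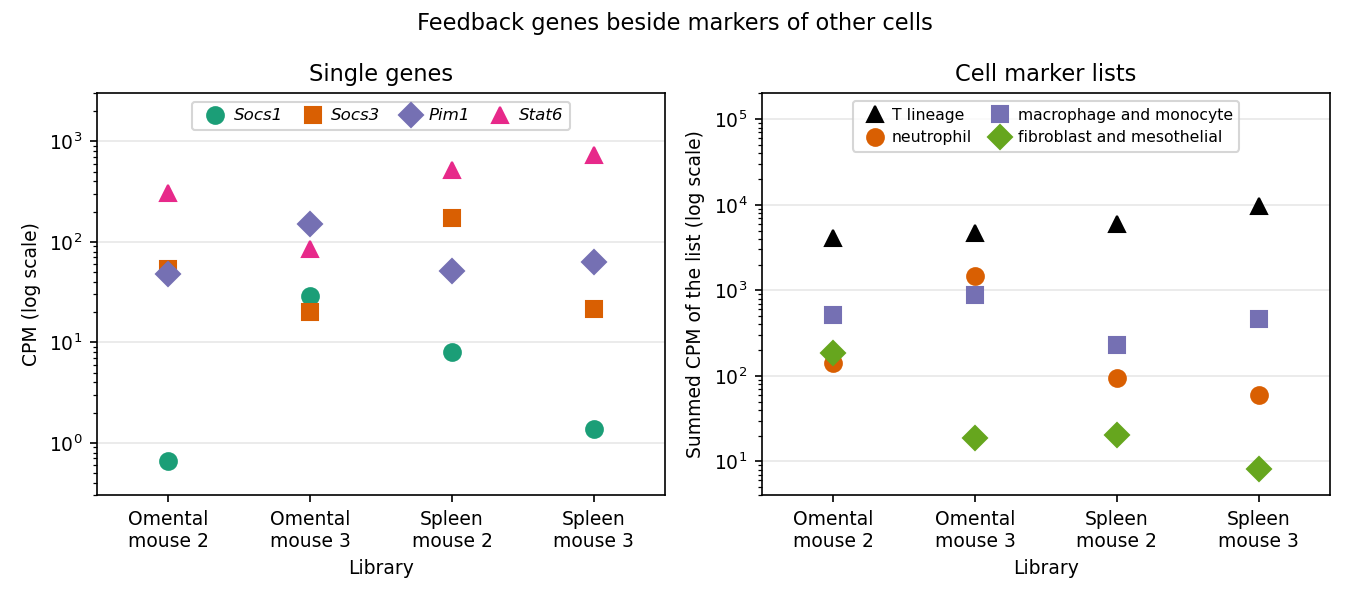
CPM of Socs1, Socs3, Pim1 and Stat6 (left) and summed CPM of 4 marker lists (right) in each library, on log axes. The mouse 3 omental library holds the highest Socs1 (29.1 CPM), Pim1 (151 CPM) and neutrophil sum (1467 CPM) and the lowest Stat6 (85.1 CPM).

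Around these genes, 90 further genes of JAK-STAT signalling were taken from lists of its layers, of which 84 were tested. In edgeR 5 of them rose and 2 fell in omental tumor (8.33% called, beside 1.32% of all genes, 1.09% higher and 0.227% lower), with a median log2 fold change of 0.12 beside 0.11 over all genes. The lists were written with earlier results of these data known, so these shares do not test the lists. Of 18 cytokines that activate STATs, 14 passed the filter on low counts and 1, the eosinophil growth factor Il5, rose. Some of the 14, Il5 and Il12a among them, passed through their omental counts alone, which fixes the direction of their difference. Il5 stood at 3.81 and 8.86 CPM in omental tumor and at 0.294 and 0 CPM in spleen, from 29, 35, 3 and 0 counts (adjusted p = 0.0403). Its call was lost in limma-voom (0.204), with upper-quartile factors (0.0532) and with no filter (0.0580). Il12a, with 27 and 21 counts in omental tumor against 1 and 1 in spleen, had an adjusted p of 0.0873 in edgeR. Il6 stood at 9.06 and 15.95 CPM in omental tumor against 2.64 and 0.549 CPM in spleen (adjusted p = 0.218). With the replicate block both were called (0.000818 for Il12a and 0.0133 for Il6). Among 26 STAT-coupled receptors 3 rose and 0 fell, with a median of -0.41. The 3 were receptor subunit genes that myeloid cells are known to use. Csf2rb, the shared chain of the receptors for interleukin-3, interleukin-5 and GM-CSF, stood at 26.4 and 108 CPM in omental tumor and at 6.95 and 4.58 CPM in spleen (log2 fold change 3.54, adjusted p = 0.00383). Its mouse-specific relative Csf2rb2, close in sequence and so uncertain in its share of reads, stood at 6.17 and 29.4 CPM in omental tumor against 2.45 and 0.549 CPM in spleen (3.55, adjusted p = 0.0423, and 0.173 in limma-voom). Csf3r, the receptor of the neutrophil growth factor G-CSF and a member of the neutrophil list too, stood at 27.96 and 276 CPM in omental tumor against 21.8 and 4.85 CPM in spleen (3.51, adjusted p = 0.00498, and 0.164 with the replicate block). All 3 were highest in the mouse 3 omental library, the one with the highest neutrophil sum (1467 CPM), and the part of such cells in them was not tested.

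Among kinases and inhibitors there was 1 call, Pim3. None of the 4 JAK kinase genes was called in edgeR, DESeq2 or limma-voom, each with 2 at an unadjusted p under 0.05, and 3 had negative fold changes. Jak2 stood at 138 and 103 CPM in omental tumor against 28.9 and 44.0 CPM in spleen (adjusted p = 0.465). Tyk2 stood at 163 and 25.3 CPM in omental tumor against 261 and 398 CPM in spleen (adjusted p = 0.484). None of Socs4, Socs5, Socs6 and Socs7 was called, with 0 at an unadjusted p under 0.05 in these tools. None of 10 other brakes such as the phosphatase gene Ptpn6 was called either, with 0 unadjusted in edgeR and 1 each in DESeq2 and limma-voom. Pim3, a relative of Pim1, rose, at 2.36 and 34.9 CPM in omental tumor against 1.37 and 1.37 CPM in spleen (log2 fold change 3.74, adjusted p = 0.0253, 0.0766 with the replicate block and 0.434 in limma-voom). The interleukin-6 receptor gene Il6ra stood at 3.15 and 4.56 CPM in omental tumor against 44.6 and 17.02 CPM in spleen (edgeR adjusted p = 0.0547). The block for the mouse brought that p to 0.0456 and DESeq2 gave 0.0244, both calls, while limma-voom gave 0.154.

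Of 11 genes described as STAT5 targets in T cells, 2 fell and 0 rose, with a median of -0.46. Bcl2, the survival gene, stood at 30.5 and 18.5 CPM in omental tumor against 306 and 228 CPM in spleen (log2 fold change -3.44, adjusted p = 0.00981). Lta, which encodes lymphotoxin alpha, stood at 6.43 and 15.7 CPM in omental tumor against 89.5 and 87.9 CPM in spleen (-3.01, adjusted p = 0.0226, 0.0676 with RLE and 0.133 with upper-quartile factors). Cdk6, a cell cycle kinase gene, stood at 98.8 and 254.7 CPM in omental tumor against 33.5 and 20.4 CPM in spleen (2.71, adjusted p = 0.0711). The granzyme gene Gzmb of the same list stood at 533 and 705 CPM in omental tumor against 81.1 and 193 CPM in spleen (2.17, adjusted p = 0.335). None of 8 STAT3 target genes was called in edgeR (median 0.49, 1 at an unadjusted p under 0.05), while DESeq2 called 1 and limma-voom 0, each with 2 unadjusted. Fos had the smallest p there, at 276 and 243 CPM in omental tumor against 47.4 and 58.7 CPM in spleen (adjusted p = 0.222), and belongs to the handling list too. Of 6 STAT4 targets tested edgeR called 0 (median 0.36), DESeq2 1 and limma-voom 0, each with 1 unadjusted. Furin, which encodes a protease, had the smallest p in edgeR, at 38.2 and 31.1 CPM in omental tumor against 5.09 and 6.04 CPM in spleen (adjusted p = 0.103). Of 3 STAT6 targets tested all of these tools called 0 (median 0.96), again with 1 unadjusted. Each of the 7 called pathway genes kept its call in only 1 of the 4 fits that left out a library. Without the mouse 3 omental library the log2 fold change was 0.69 for Pim3 (adjusted p = 0.943) and 0.99 for Csf3r, 2.11 for Csf2rb and 1.95 for Csf2rb2 (adjusted p = 0.936 for each of these 3). Bcl2 was at -3.22 without it, near its value with all libraries, at an adjusted p of 0.273, Il5 had an adjusted p of 0.936, and Lta kept its call (-3.87, adjusted p = 0.0329). With library gene totals alone none of the 7 was called in edgeR, at adjusted p from 0.134 to 0.425.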

How the data were processed

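Per the labels' protocols, total RNA of sorted Tregs was turned into cDNA with SMART-seq v4 and into libraries with Nextera XT. The deposited files hold raw read counts per gene symbol, made with HTSeq, TopHat2, SAMtools and Trim Galore on build mm10, per the submitters' processing notes. The sources used here give no versions, annotation or strand setting. The 5 HTSeq summary entries, which name no gene, were left out of library sizes. Genes took 17.1% and 22.2% of all entries in omental tumor against 24.9% and 46.0% in spleen, and these summary entries the rest. Alignments that were not unique took 33.5% and 49.9% in omental tumor against 30.2% and 28.0% in spleen. Reads outside annotated genes took 48.9% and 27.3% in omental tumor against 44.2% and 24.8% in spleen.

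The test was edgeR 4.0.16 in R 4.3.3 (filterByExpr at a minimum count of 10, TMM factors between 0.804 and 1.15, estimateDisp, glmQLFit and glmQLFTest with the defaults of this version), with tissue as the only term and Benjamini-Hochberg adjustment over all 16322 genes at 0.05. A positive log2 fold change is one higher in omental tumor. SE is the absolute log2 fold change over the square root of F. The prior degrees of freedom were infinite, so SE and p do not measure a gene's own spread between mice. Replicates were separate mice. Mouse numbers in the labels mark the same animal in both tissues and pair the libraries, whose deviations correlated at 0.234 across genes, a value that 2 libraries a tissue force to be equal for both mice.

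Exon lengths and positions are from GENCODE M21 (GRCm38, the same assembly as mm10). The genes, lists and tests were chosen with earlier results of these data known. Open to naming were the 10 genes, the called genes and the 3 smallest p-values of each pathway list, the sort markers, and the 2 most abundant genes of each marker list. The text names a part of these, and that part was picked after the values were seen. So were the few genes outside the rule (Il6ra, Gzmb, Csf1r, Mrc1, Socs7, Atf3, Dusp1, Ier2 and Jun). The result of 1 pathway list is not reported here. The test was checked on simulated counts, whose settings and outcome are not given here.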

Additional observations from a re-analysis of the deposited data

How the results depend on the processing

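Under 13 alternatives none of the 10 genes was called. Calls over all genes, 215 in the fit reported, numbered 26 with library gene totals alone, 3 at a minimum count of 50 and 370 with DESeq2 1.42.0. They ran from 44 to 606 when 1 library was left out (606 without the mouse 2 and 79 without the mouse 3 omental library, 44 without the mouse 2 and 74 without the mouse 3 spleen library), where the tissue's remaining library was taken to vary as the others do. With upper-quartile factors 188 calls were higher and 13 lower in omental tumor, beside 178 and 37 in the fit reported. Scaling by the summed T lineage counts, added after seeing the data, gave 0 calls in edgeR with 1173 genes at an unadjusted p under 0.05. Signs turned in 12 cases. Stat3 was -0.067 with no filter, -0.015 in limma-voom 3.58.1 and -0.010 with the replicate block, and ran from -0.54 to 0.41 when a library was left out. Leaving out a library gave a range of -2.89 to 3.35 for Socs1, which was -0.00070 in limma-voom. It gave -2.27 to 0.73 for Socs3 and -0.36 to 1.38 for Pim1. The range was -1.79 to -0.055 for Stat5a (-0.055 without the mouse 3 omental library), -1.14 to -0.12 for Cish and -0.96 to -0.012 for Socs2 (both upper ends without the mouse 3 spleen library). Socs2 was 0.071 with upper-quartile factors. Scaled to T lineage counts, Stat5a and Socs2 were both 0.29 and Cish 0.13. The cause was not tested. Stat4 (-1.69 to -0.21), Stat5b (-1.67 to -0.11) and Stat6 (-2.89 to -0.81) had negative values under all 13. The median of all genes, 0.11 with TMM, was 0.37 with gene totals, 0.60 with upper-quartile factors and 0.84 with T lineage scaling. With the replicate block 308 genes were called, and no call among the 10 changed. Depth limited Socs1 most, with 5 counts in 1 library.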
